A study of Mus with 4 samples.

Results

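The genes described here are 10 components of the transforming growth factor-β (TGF-β) and bone morphogenetic protein (BMP) pathways. They were picked by Ensembl ID, after the version suffix was dropped, with the symbols given along with that choice, and all 10 were found among the 55487 IDs of the deposited table. They comprise the ligands *Tgfb1*, *Tgfb2*, *Tgfb3*, *Bmp4* and *Bmp10*, the receptors *Tgfbr1*, *Tgfbr2* and *Acvrl1*, and the inhibitory Smads *Smad6* and *Smad7*. The rule uses no measured value, although earlier results of these data were known when the genes were chosen.

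RNA-Seq was carried out on newborn mouse hearts at postnatal day 0, with 2 libraries labelled WT and 2 labelled miR-187. Mice of the miR-187 line carry an additional copy of mouse miR-187 at *Rosa26*, placed under the *Tek* (*Tie2*) promoter so that endothelial cells express it, on a C57BL/6J background. WT animals carry no insertion. The methods of the study give the knockin genotype for RNA-Seq as KI/KI, whereas the labels give none, and the methods name cardiac endothelial cells where the labels name heart. The libraries are treated here as heart, following the labels, and whether each holds 1 animal or a pool is not given in the sources used here.

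TGF-β and BMP ligands are secreted proteins that bring together type I and type II receptor kinases at the cell surface. The type I receptor then phosphorylates receptor-regulated Smad proteins, which enter the nucleus with *Smad4* and change transcription. *Smad6* and *Smad7* are switched on by the pathway and damp it, *Smad6* mainly on the BMP side and *Smad7* on both. In the developing heart these signals drive endocardial cells to become the mesenchyme of the valve and septal cushions, and BMP signals from the myocardium support trabecular growth. The study named *SMAD7* as another target of miR-187 beside *NIPBL*, so the *Smad7* transcript bears on the question of how raised miR-187 acts in the heart.

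Values are the FPKM (fragments scaled by transcript length and by the mapped fragments of the library) of the authors, which are corrected for gene length and can be compared between genes. Differences between groups were taken on the log2(FPKM + 1) scale, which understates changes at levels as low as these, and were tested with limma across the 14325 IDs whose mean reached 1 FPKM. All 10 genes passed that minimum. Read depth was unknown because the table holds no counts. Nothing in the labels says that the libraries came from separate animals, so p-values refer to the spread between libraries. For each gene, limma estimates that spread largely from genes of similar level. With 2 libraries against 2, an exact permutation test could not give a p below 0.333, and none was run on single genes.

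Some features of the libraries touch genes of this level. The FPKM sums lay between 750826 and 807359. The median over all IDs was 0.562 and 0.402 FPKM in replicate 1 of WT and miR-187, against 0.241 and 0.261 FPKM in replicate 2. The lowest values of the 10 genes, such as 0.833 FPKM for *Smad7* in WT replicate 1, lay not far above these medians. Whether background contributes to such values was not tested. Library miR-187 replicate 2 stood apart, with 16 IDs of at least 10 FPKM that exceeded every other library at least 10-fold, against 0 to 4 such IDs in each other library. Cell type markers were not examined, because genes are listed by ID alone, so the labelled tissue was not checked against them. *Bmp10*, whose expression is largely restricted to the heart, was above 0 in all 4 libraries. That does not check the tissue, since most of the 55487 IDs were above 0 in each library. Their number ran from 44825 in miR-187 replicate 2 to 53180 in WT replicate 1.

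Across the whole group, no TGF-β or BMP gene differed between WT and miR-187 hearts beyond the replicate error. With a threshold of 0.05 on the Benjamini-Hochberg adjusted p, limma called 0 of the 10 genes, beside 0.00698% of all genes tested (1 of 14325). At an unadjusted p under 0.05 it also called 0 of the 10, beside 3.12% of all genes. The lowest adjusted p among the 10 genes was 0.9997. Group means on the log2 scale were higher in miR-187 for 8 genes and lower for 2, *Bmp10* and *Smad6*. The median difference, miR-187 minus WT, was 0.09 for the 10 genes and -0.04 for all genes tested. This tally turned over when 1 of certain libraries was left out. Without miR-187 replicate 1, 3 genes were higher and 7 lower, with a median of -0.21, and without WT replicate 1, 4 were higher and 6 lower, with a median of -0.16. For 9 of the 10 genes, the 2 libraries of one group lay farther apart than the 2 group means did. The exception was *Bmp10*, described next.

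*Bmp10* (ENSMUSG00000030046, chr6:87428994-87434512, mm10) encodes a BMP ligand made by cardiomyocytes that supports trabecular growth in the embryo and becomes an atrial product around birth. Replicates 1 and 2 of WT had 3.38 and 2.91 FPKM, and those of miR-187 had 2.20 and 1.08 FPKM. Each miR-187 value was thus below each WT value, an order found in 13.2% of all genes tested, and *Bmp10* was the 1 gene of the 10 with groups that did not overlap. The opposite order, miR-187 above WT throughout, was found in 12.3% of all genes and in 0 of the 10. The WT mean of 3.15 ± 0.328 FPKM compared with 1.64 ± 0.791 FPKM in miR-187 (mean ± SD, 2 libraries each, as for the means that follow). On the log2 scale *Bmp10* differed by -0.68, with a standard error of 0.35 and a 95% confidence interval from -1.42 to 0.05, and limma gave an unadjusted p of 0.0664 and an adjusted p of 0.9997. Without miR-187 replicate 2, which held the lowest value and is the library that stood apart, the difference was -0.37, and without miR-187 replicate 1 it was -0.996. The difference was below 0 in every alternative run that tested *Bmp10*. As its groups did not overlap, leaving out 1 library could not have changed that direction. In bulk samples such as these, fewer cells that make a transcript and less transcript per cell cannot be told apart.

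**Figure D1:**
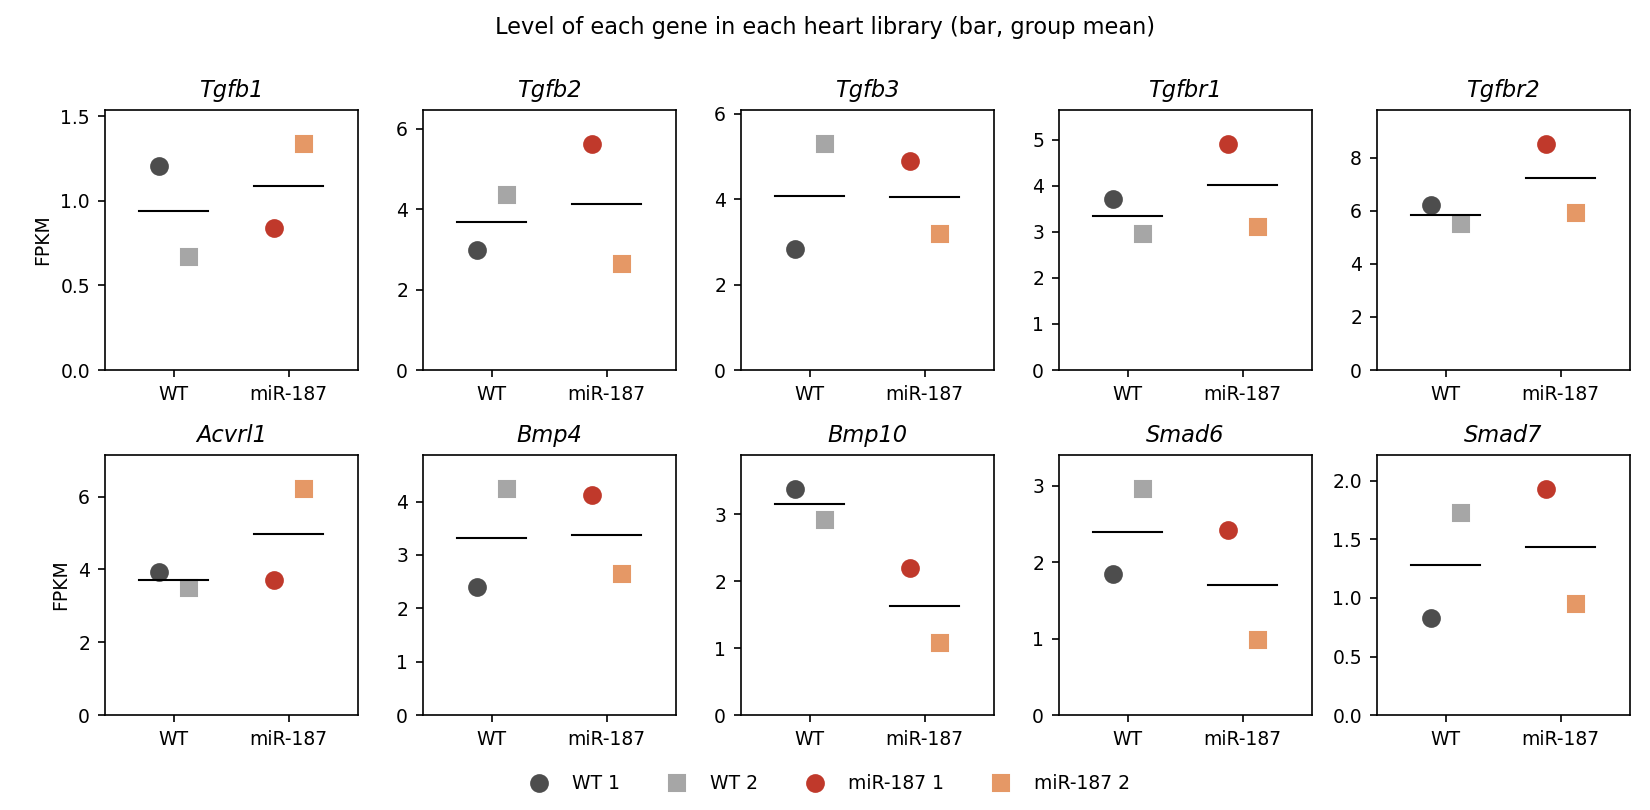
FPKM of the 10 genes in each library, one panel per gene with its own linear axis from 0. Circles are replicate 1, squares replicate 2 and bars group means. Only the *Bmp10* panel shows both miR-187 points (2.20 and 1.08 FPKM) below both WT points (3.38 and 2.91 FPKM).

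*Bmp4* (ENSMUSG00000021835, chr14:46383525-46390669), a ligand needed for outflow tract and cushion development, showed no such order. The WT libraries, replicate 1 first, had 2.41 and 4.24 FPKM, and the miR-187 libraries 4.13 and 2.63 FPKM. One library of each group was high and one was low, and the WT libraries differed from each other 1.76-fold. The WT mean was 3.32 ± 1.29 FPKM, that of miR-187 was 3.38 ± 1.06 FPKM, and the interval of the log2 difference (0.031) ran from -0.72 to 0.78.

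The TGF-β ligands were led by *Tgfb2* and *Tgfb3*, with *Tgfb1* the lowest. *Tgfb2* (ENSMUSG00000039239, chr1:186622787-186709697), the ligand most closely tied to cushion mesenchyme formation in mice, stood at 2.98 FPKM in WT replicate 1 and 4.37 FPKM in WT replicate 2. The miR-187 libraries had 5.63 and 2.65 FPKM, which are the highest and the lowest of its 4 values. The miR-187 libraries therefore enclosed the WT range, and the log2 difference of 0.09 had an interval from -0.68 to 0.86.

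*Tgfb3* (ENSMUSG00000021253, chr12:86056743-86079041), which acts in cushion and palate remodelling, stood at 2.83 and 5.30 FPKM in the WT libraries and at 4.90 and 3.20 FPKM in the miR-187 libraries, replicate 1 first. Here the WT libraries enclosed the miR-187 range. Its WT mean of 4.07 ± 1.75 FPKM was close to the miR-187 mean of 4.05 ± 1.20 FPKM. The direction depended on the scale, since miR-187 was slightly lower by mean FPKM but higher by 0.017 on the log2 scale, with an interval from -0.74 to 0.78.

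*Tgfb1* (ENSMUSG00000002603, chr7:25687002-25705077), a ligand made by endothelial and blood cells among others, stood at 1.21 FPKM in replicate 1 and 0.667 FPKM in replicate 2 of WT, and at 0.841 and 1.34 FPKM in the same replicates of miR-187. Its mean over the libraries, 1.01 FPKM, was just above the minimum for testing, and only 0.628% of the genes tested had a lower mean. WT replicate 1 and miR-187 replicate 2 were the high libraries, the reverse of *Tgfb2* and *Tgfb3*, and the log2 difference was 0.11 with an interval from -0.65 to 0.87.

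The make-up of the TGF-β ligand pool was examined next, since shares within a library do not depend on its scaling. Summed over the 3 ligands, WT libraries held 7.02 and 10.3 FPKM and miR-187 libraries 11.4 and 7.18 FPKM. *Tgfb2* made up 42.4% and 42.2% of this sum in WT, and 49.5% and 36.9% in miR-187. *Tgfb3* made up between 40.4% and 51.3% in the 4 libraries. The share of *Tgfb1* was high in WT replicate 1 (17.2%) and miR-187 replicate 2 (18.6%) and low in WT replicate 2 (6.45%) and miR-187 replicate 1 (7.40%). All 3 shares overlapped between groups, and the *Tgfb1* share differed more between replicates than between genotypes.

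**Figure D2:**
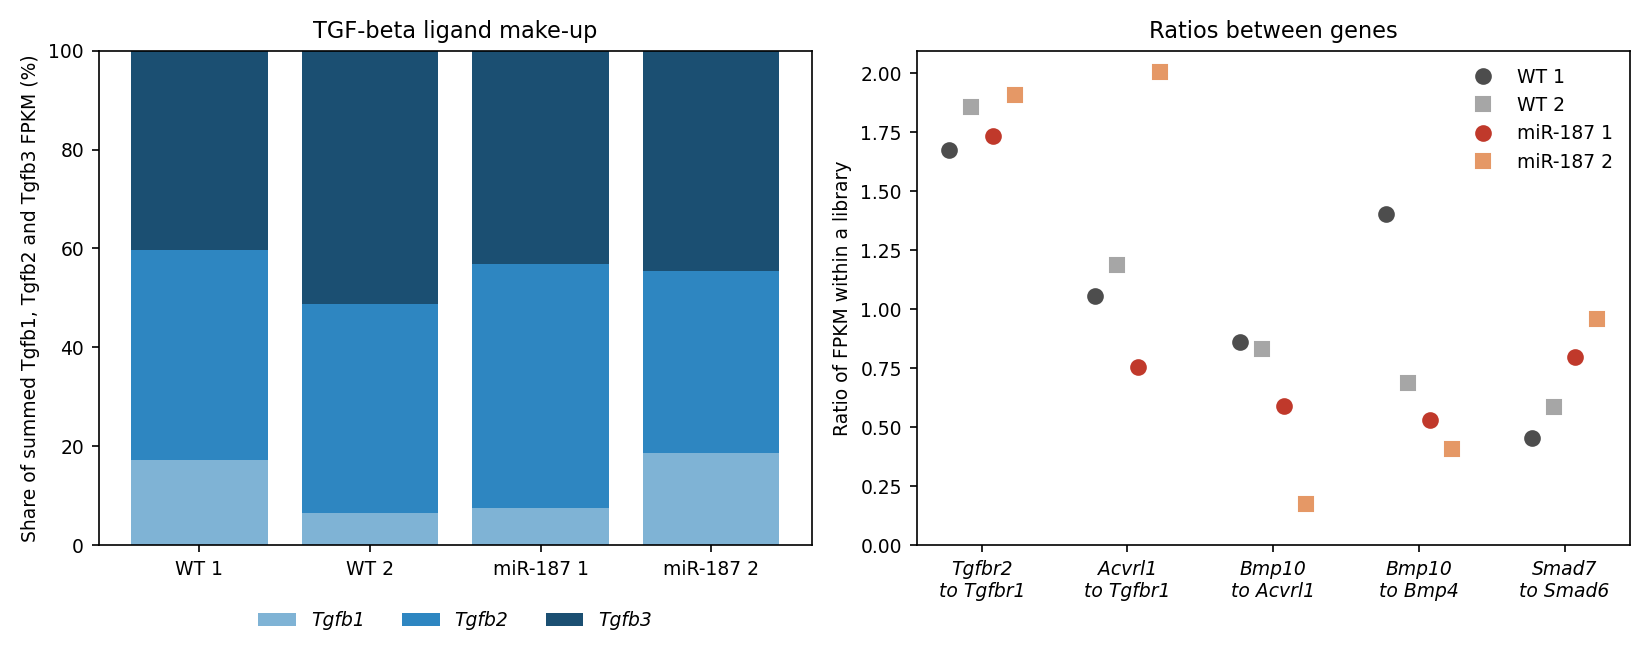
Left, share of each ligand in the summed FPKM of *Tgfb1*, *Tgfb2* and *Tgfb3* in each library, in percent. Right, ratios of FPKM between pairs of genes within each library, with circles for replicate 1 and squares for replicate 2. The *Tgfb1* share is 17.2% in WT 1 and 18.6% in miR-187 2, against 6.45% in WT 2 and 7.40% in miR-187 1, and the ratio of *Tgfbr2* to *Tgfbr1* stays between 1.67 and 1.91.

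Among the receptors, *Tgfbr2* (ENSMUSG00000032440, chr9:116087695-116175363), the type II receptor that binds TGF-β, had the highest mean of the 10 genes. Its level was 6.22 and 5.49 FPKM in the WT libraries and 8.53 and 5.91 FPKM in the miR-187 libraries, in replicate order. Only miR-187 replicate 1 exceeded the WT range. The mean was 5.86 ± 0.518 FPKM for WT libraries, against 7.22 ± 1.85 FPKM for miR-187 libraries, and the log2 difference of 0.24 had an interval from -0.50 to 0.99. With median centring or trimmed mean of M-values (TMM) factors, the *Tgfbr2* groups no longer overlapped, with miR-187 the higher, an order then found in 14.2% and 14.1% of all genes, and the difference became 0.28 under either scaling. Without miR-187 replicate 1 it was 0.013, and without miR-187 replicate 2 it was 0.48.

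*Tgfbr1* (ENSMUSG00000007613, chr4:47353222-47414926), the type I receptor that signals with *Tgfbr2*, ran in parallel. Levels in replicates 1 and 2 were 3.72 and 2.95 FPKM for WT, and 4.92 and 3.10 FPKM for miR-187. The miR-187 replicate 1 library was again the high one, while miR-187 replicate 2 fell within the WT range. The log2 difference was 0.19 with an interval from -0.54 to 0.92, and it turned to -0.075 without miR-187 replicate 1. The ratio of *Tgfbr2* to *Tgfbr1* was 1.67 and 1.86 in WT and 1.73 and 1.91 in miR-187. This ratio varied 1.14-fold over the 4 libraries, whereas *Tgfbr2* itself varied 1.55-fold and *Tgfbr1* 1.66-fold.

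*Acvrl1* (ENSMUSG00000000530, chr15:101128522-101145336) encodes the type I receptor through which endothelial cells respond to circulating BMP ligands, *Bmp10* among them. WT replicates 1 and 2 had 3.93 and 3.50 FPKM, and miR-187 replicates 1 and 2 had 3.72 and 6.21 FPKM. A single library, miR-187 replicate 2, was high, and the remaining libraries lay close together. The log2 difference was 0.31 with an interval from -0.43 to 1.05, and it was 0.0025 without miR-187 replicate 2 and 0.61 without miR-187 replicate 1. The ratio of *Acvrl1* to *Tgfbr1* was 1.06 and 1.19 in WT, and 0.756 and 2.00 in miR-187, so that the WT range lay inside the miR-187 range.

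**Figure D3:**
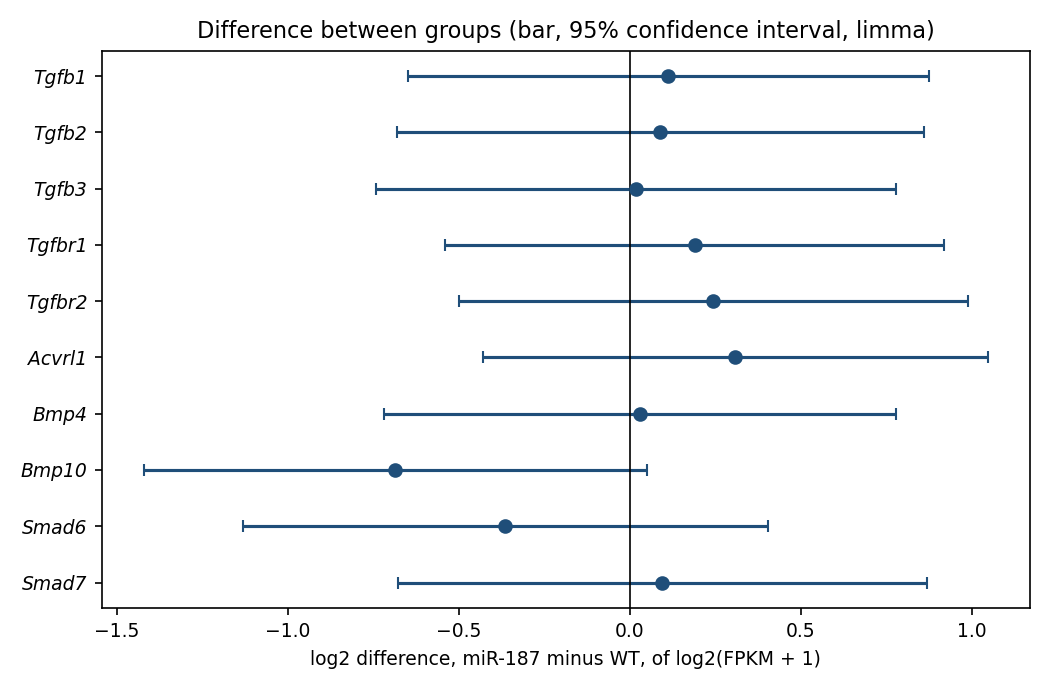
Difference between groups for each gene, miR-187 minus WT, on the log2(FPKM + 1) scale. Points are limma estimates and bars 95% confidence intervals. All 10 intervals include 0, with *Bmp10* at -0.68 (-1.42 to 0.05) the farthest from it.

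The inhibitory Smads were the least abundant genes beside *Tgfb1*. *Smad7* (ENSMUSG00000025880, on chromosome 18), the feedback inhibitor that blocks type I receptors, stood at 0.833 FPKM in WT replicate 1 and 1.73 FPKM in WT replicate 2. The miR-187 libraries had 1.93 and 0.945 FPKM, in replicate order. Each group held a high and a low library, 2.07-fold apart in WT and 2.04-fold apart in miR-187, and the groups overlapped throughout. The WT mean was 1.28 ± 0.633 FPKM, against 1.44 ± 0.697 FPKM for miR-187. The log2 difference of 0.10 had a standard error of 0.37, an interval from -0.68 to 0.87 and a limma adjusted p of 0.9997. A lower *Smad7* level in miR-187 libraries was therefore not seen, but the interval includes decreases, and its lower bound depended on the setting. The bound was -1.16 with a pseudocount of 0.1 FPKM, -1.14 without miR-187 replicate 1 and -1.09 without WT replicate 1. The direction turned when 1 library was left out, to -0.19 without WT replicate 1 and to -0.20 without miR-187 replicate 1.

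*Smad6* (ENSMUSG00000036867, chr9:63953076-64022085), the inhibitor of BMP signalling that is prominent in endocardium and valves, stood at 1.84 and 2.96 FPKM in WT replicates 1 and 2. Its miR-187 values, in replicate order, were 2.42 and 0.987 FPKM. The lowest value was in miR-187 replicate 2, while miR-187 replicate 1 fell within the WT range. The log2 difference was -0.36 with an interval from -1.13 to 0.40. It rested on miR-187 replicate 2, since it was 0.027 without that library. The ratio of *Smad7* to *Smad6* was 0.452 and 0.584 in WT, and 0.799 and 0.958 in miR-187, so these groups did not overlap and miR-187 had the higher ratio. Non-overlap of either kind was found in 27.8% of the ratios between any 2 genes tested.

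Ratios between genes were then considered as a whole, because a ratio within a library is free of its scaling. Of the 45 ratios that can be formed from 10 genes, 14 had groups that did not overlap (31.1%), close to the 27.8% found over all pairs of tested genes that were above 0 in every library. Non-overlapping ratios were thus about as common among the 10 genes as among genes in general, and which genes they involved is given as a description. Among these, 8 involved *Bmp10* and the remaining 6 involved *Smad6*, the genes with lower group means in miR-187. *Bmp10* was lower relative to every other gene of the group except *Smad6* in both miR-187 libraries. The ratio of *Bmp10* to *Acvrl1*, a ligand and its receptor, was 0.860 and 0.833 in WT, and 0.590 and 0.173 in miR-187. The ratio of *Bmp10* to *Bmp4* was 1.40 and 0.688 in WT libraries and 0.532 and 0.409 in miR-187 libraries. These ratios share genes and were not tested.

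The replicates themselves differed in a recurring way, which was noticed only after the values were seen. In 5 genes, *Tgfb2*, *Tgfb3*, *Bmp4*, *Smad6* and *Smad7*, WT replicate 2 and miR-187 replicate 1 were both above the other two libraries. That order was found in 27.6% of all genes tested. In *Tgfb1* and *Acvrl1* the same pair of libraries was below the other two, an order found in 12.2% of all genes. The labels name no batch that joins these libraries. The median log2 value over all genes tested was also higher in WT replicate 2 (2.34) and miR-187 replicate 1 (2.38) than in WT replicate 1 (2.28) and miR-187 replicate 2 (2.17). After centring on those medians the same counts of 5 and 2 genes were obtained, with the same genes, while the shares of all genes became 17.7% and 21.0%. What sets this order was not tested.

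**Figure D4:**
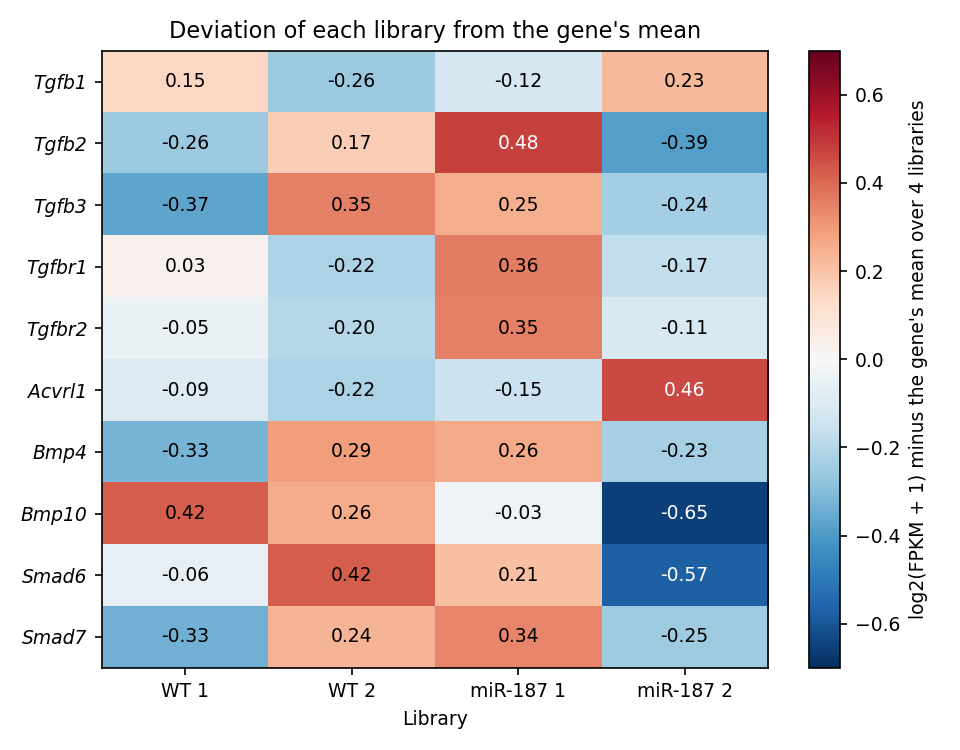
Deviation of each library from the mean of the gene over the 4 libraries, on the log2(FPKM + 1) scale, with genes in rows and libraries in columns. Red is above and blue below the mean. Columns WT 2 and miR-187 1 are red for *Tgfb2*, *Tgfb3*, *Bmp4*, *Smad6* and *Smad7*, and the *Bmp10* row runs from 0.42 in WT 1 to -0.65 in miR-187 2.

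By the distance between such deviations over the 4 libraries, *Smad7* was nearest to *Bmp4* (0.099), then to *Tgfb3* (0.15) and *Tgfb2* (0.22). *Bmp10* was nearest to *Smad6* (0.57), then to *Tgfbr1* (0.88) and *Tgfb2* (0.90), so none followed it closely. The closest pair was *Tgfb3* and *Bmp4*, whose FPKM ratio was 1.18 and 1.25 in WT and 1.19 and 1.21 in miR-187. It varied 1.06-fold over the libraries, the least of the 45 ratios, for which the median was 2.52-fold. Only the 10 genes were compared in this way, and no test was run on these distances.

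In level, the genes ran from *Tgfbr2* (mean 6.54 FPKM) through *Acvrl1* (4.34), *Tgfb3* (4.06), *Tgfb2* (3.91), *Tgfbr1* (3.67), *Bmp4* (3.35), *Bmp10* (2.39), *Smad6* (2.05) and *Smad7* (1.36) to *Tgfb1* (1.01). *Tgfbr2* stood above 64.3% of the genes tested and *Smad7* above 12.7%. Every gene overlapped in range with its neighbour in this order, so no step was larger than the spread of the libraries. *Smad6* exceeded *Smad7* in all 4 libraries, and *Tgfbr2* exceeded *Acvrl1* in 3 of 4, with miR-187 replicate 2 the exception.

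Standard errors were similar for all 10 genes, from 0.35 to 0.37 on the log2 scale. This likeness comes largely from limma, which moderates the spread of each gene toward that of genes of similar level. Before moderation, the residual SD ranged from 0.24 for *Tgfbr2* to 0.48 for *Tgfb2*. Replicates of these genes differed somewhat more than those of genes in general. The median absolute log2 difference between the 2 WT libraries was 0.42 for the 10 genes and 0.36 for all genes tested, and between the 2 miR-187 libraries it was 0.56 and 0.37. The median absolute difference between groups was 0.15 for the 10 genes and 0.21 for all genes. These medians are given as a description and were not tested.

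**Figure D5:**
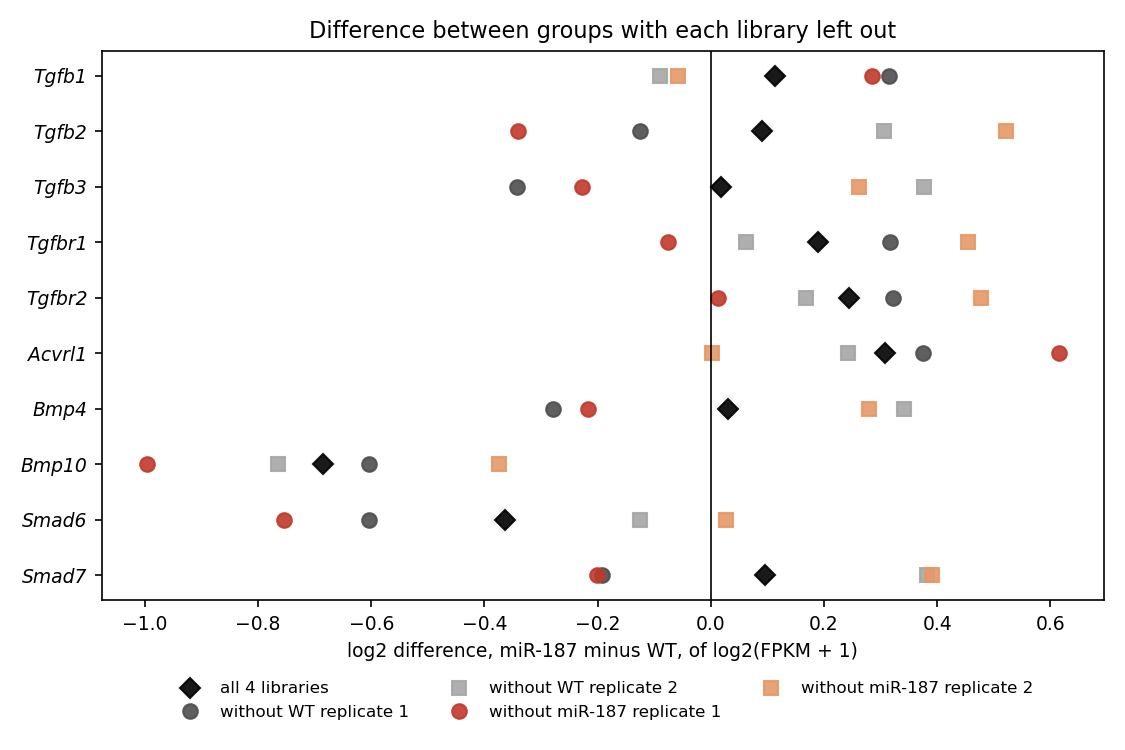
Difference between groups, miR-187 minus WT, on the log2(FPKM + 1) scale with all 4 libraries (diamonds) and with each library left out in turn. *Bmp10* stays below 0 (-0.996 to -0.37), *Acvrl1* and *Tgfbr2* stay above 0, and the other 7 genes cross 0.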

How the data were processed

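RNA-Seq of 2 WT and 2 miR-187 libraries, labelled as heart, was analysed from 1 deposited table. The authors deposited FPKM values per Ensembl gene ID, and the submitters' processing notes name HISAT2, StringTie, DESeq2 and mm10 without stating their roles or versions. FPKM sums per library, not read depths, are given, since counts were not used here. Groups and replicate numbers came from the sample labels.

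The values, as log2(FPKM + 1), were fitted with limma 3.58.1 (R 4.3.3; group term only, mean-variance trend, two-sided) over IDs whose mean reached 1 FPKM, with Benjamini-Hochberg adjustment at 0.05. The fit was tested on simulated data first. Confidence intervals are 95% and use limma's moderated spread. Figures were drawn with matplotlib 3.10.9 (Python 3.11.15). Coordinates came from RefSeq's annotation of GRCm38.p6, the assembly called mm10, by gene symbol. TMM factors were computed on FPKM with trims of 30% (ratios) and 5% (levels).

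All 10 genes are named. The genes, lists and tests were chosen with earlier results of these data known. Likeness of pattern is the Euclidean distance between log2(FPKM + 1) values centred on each gene's mean. Lists of other pathway genes and of cell type markers could not be matched to IDs and were not analysed here, nor was miR-187 itself. Alternatives were 0.1 as the pseudocount, a filter at 0.1 or 5 FPKM or none, median, TMM and quantile scaling, no trend, robust moderation, the replicate number as a block, and each library left out.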

Additional observations from a re-analysis of the deposited data

How the results depend on the processing

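None of the 10 TGF-β and BMP genes was called by limma under any alternative run. The count over all genes tested, 1 with every library, was 46 with a minimum mean of 0.1 FPKM, 6 with robust moderation and 51 with the replicate number as a block. It was 0 with a minimum mean of 5 FPKM (153 genes at an unadjusted p under 0.05), 0 with no filter (1122 genes) and 0 with quantile normalization (458 genes). With each library left out it ranged from 25 to 98, and a group reduced to 1 library was assumed to vary like the other. Same-numbered libraries were not taken as pairs (correlation of deviations -0.0675 over 14325 genes), and the block called 0 of the 10 genes. The median difference of the 10 genes ranged from -0.21 to 0.27 with each library left out.

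All 40 values for single genes from the pseudocount and the 3 scalings kept their direction, while the filters, the moderation settings and the block cannot change the estimate of a gene. Of 40 values with 1 library left out, 28 kept it and 12 reversed. Ranges with each library left out were -0.089 to 0.32 for *Tgfb1*, -0.34 to 0.52 for *Tgfb2*, -0.34 to 0.38 for *Tgfb3*, -0.075 to 0.45 for *Tgfbr1*, 0.013 to 0.48 for *Tgfbr2*, 0.0025 to 0.61 for *Acvrl1*, -0.28 to 0.34 for *Bmp4*, -0.75 to 0.027 for *Smad6* and -0.20 to 0.39 for *Smad7*. With a pseudocount of 0.1 FPKM, *Bmp10* was at -0.98, *Smad6* at -0.56, *Tgfb1* at 0.22, *Smad7* at 0.16 and *Tgfb3* at 0.028. Quantile normalization gave 0.16 for *Tgfb2* and *Smad7*, 0.12 for *Bmp4* and 0.095 for *Tgfb3*. Median centring and TMM factors gave 0.068 and 0.059 for *Bmp4* and 0.054 and 0.047 for *Tgfb3*. All of these lay inside the confidence intervals of the reported differences, which says little. The intervals are wide and come from the same 4 libraries, and the pseudocount of 0.1 FPKM gives another scale. A minimum mean of 5 FPKM left only *Tgfbr2* of the 10 genes to test. The count over other pathway genes was not run.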
